A study of Drosophila melanogaster with 6 samples.

Results

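Anterodorsal projection neurons (adPNs) are second-order olfactory neurons of the Drosophila melanogaster brain, and their baseline transcriptome was read from the 3 libraries labelled wild type, out of 6 libraries in the series. Those 3 libraries were chosen by their genotype label, a rule that uses no measured value. Each was made at 36 to 40 h after puparium formation (APF), with total RNA as the material. The protocol was SMART-seq2 in a modified form, in which cDNA is amplified and molecules carry no identifiers. The labels call the genotype wild type and name no strain, age of the animal beyond the pupal stage, sex or driver line, and they do not say how many cells or brains went into a library. Nothing in them ties a library to its own animals, so the spread given here may be technical. The other 3 libraries carry an acj6 mutant label and were not used here.

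Projection neurons receive odour input from receptor neurons in the glomeruli of the antennal lobe and pass it to the mushroom body and lateral horn. adPNs are the neurons of one neuroblast lineage, each type sends its dendrite to a particular glomerulus, and most are cholinergic. At this stage of pupal life the glomeruli take shape, as axons of receptor neurons meet the dendrites of projection neurons and before synapses mature.

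The counts cover 17471 genes with FlyBase identifiers, of which 17242 were matched to a gene model. Libraries 1 to 3 are the wild-type replicates of those numbers, and their total gene counts were 27049408 in library 1, 34547549 in library 2 and 24467328 in library 3. At least 1 count was found for 11049, 11171 and 10884 genes in libraries 1 to 3. All levels are counts per 1000000 gene counts of the library (CPM), with means ± SD over the 3 libraries. Where one gene is set against another, the level is CPM divided by the median transcript length in kilobases (CPM per kilobase). A count of 0 in all 3 libraries allows a level of up to 0.0349 CPM, taken as 3 counts of the summed total, and such floors cover counting error only. Reads that aligned to several places were set aside before counting, at 3.21, 3.74 and 4.16 alignments per gene count in libraries 1 to 3, so genes with near-identical copies are undercounted.

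The neuronal and lineage markers were present in every library. acj6 (FBgn0000028), a POU-domain transcription factor of the lineage, was counted at 148, 145 and 162 CPM in libraries 1 to 3, a mean of 152 ± 9.25 CPM. C15 (FBgn0004863), a homeobox gene that marks adPNs, was counted at 198, 157 and 140 CPM, a mean of 165 ± 29.5 CPM. brp (FBgn0259246), the scaffold of the presynaptic active zone, had 3823, 4035 and 3756 CPM, and elav (FBgn0260400), a neuronal RNA-binding protein, had 303, 266 and 307 CPM. The 3 libraries lay close to each other for all 4 markers, with the widest spread for C15. Exons of elav overlap another gene over 34.2% of their length, and since the strand setting of the counting is not given, reads of the other gene cannot be separated from it. vvl and Lim1, which mark other projection neuron lineages, were low, at 2.77, 4.83 and 6.91 CPM and at 5.43, 8.54 and 10.7 CPM. Gad1, another mark of such a lineage, was moderate and uneven, at 9.76, 2.58 and 20.1 CPM. In these bulk libraries fewer cells of a type and less RNA per cell cannot be told apart.

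Fewer genes were expressed at a moderate level or above than were absent or near zero. Of 17471 genes, 4638 (26.5%) had no count in any of the 3 libraries and 4577 (26.2%) were near zero, with a mean above 0 and under 1 CPM. A further 2279 genes (13%) were low (1 to under 10 CPM), 3992 (22.8%) moderate (10 to under 100 CPM), 1876 (10.7%) high (100 to under 1000 CPM) and 109 (0.624%) abundant (1000 CPM or more). The median gene stood at 0.613 CPM, and 5977 genes (34.2%) reached 10 CPM. Among the 13757 protein-coding genes the share at 10 CPM or more was 42.4%, the share with no count was 18.2%, and the median was 3.46 CPM. The histogram of mean levels has a broad peak between 10 and 100 CPM and a flat shoulder below 1 CPM.

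**Figure D1:**
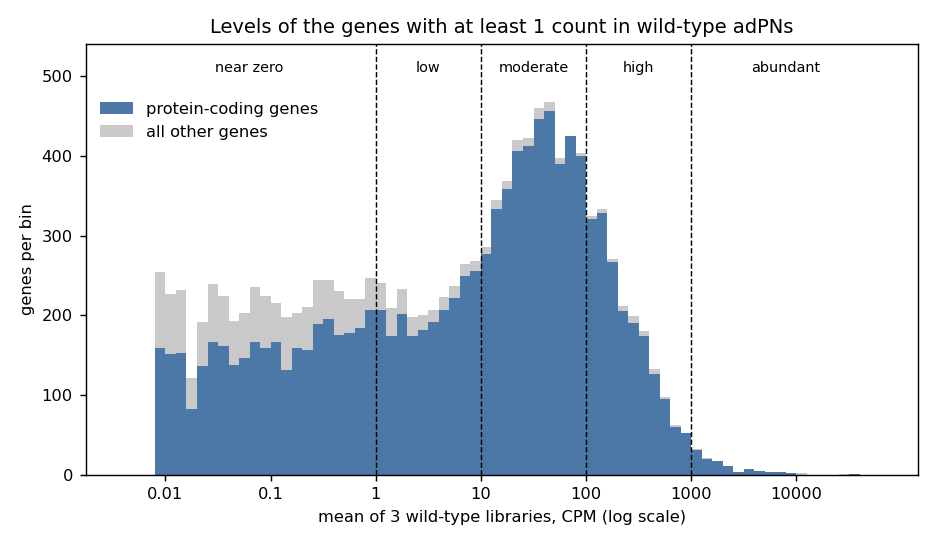
Number of genes (vertical axis) by mean CPM of the 3 wild-type libraries (horizontal axis, log scale) for genes with at least 1 count, with protein-coding genes in blue and all others in grey. Dashed lines are the class bounds of 1, 10, 100 and 1000 CPM, and the 4638 genes with no count are not drawn.

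The few abundant genes carried a large share of the counts. The 109 abundant genes held 32, 32.4 and 32.8% of the counts in libraries 1 to 3, and the 1876 high genes held 50.6, 50.4 and 50.3%. The 10 genes of highest mean held 12.9, 13.3 and 13.7% of the counts, and the top 1000 genes held 68.3, 68.6 and 69.1%. The near-zero class, with more than 4000 genes, held 0.0942, 0.103 and 0.0965%. These shares differed little between the libraries.

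The classes differed between kinds of gene. Of 2453 noncoding RNA genes, 40 reached 10 CPM. Of 312 tRNA genes, 309 had no count, as did 224 of 258 snoRNA genes and 210 of 316 pseudogenes. SMART-seq2 primes on poly(A) tails, as background, and its part in these low counts was not tested. On the Y chromosome 98 of 113 genes had no count and the other 15 were near zero. Protein-coding genes of the small chromosome 4 were at 10 CPM or more in 75.9% of cases (60 of 79), against 46.6% on the X chromosome and 39.6% on 2L. Genes whose exons lie at least 90% inside another gene made up 12.6% of the absent class and 0.457% of the moderate class. A count of 0 for such a gene says little about its expression, since reads shared by genes are set aside as ambiguous.

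The highest level in the libraries belonged to a noncoding RNA, and ion pumping, ATP synthesis, cytoskeleton and chaperone genes followed. lncRNA:noe, a long noncoding RNA of the nervous system, was counted at 24102, 30284 and 33597 CPM, a mean per length of 27231 ± 4475 CPM per kilobase. Atpalpha, the catalytic subunit of the sodium-potassium pump, had the highest mean of all genes in CPM, with 39307, 35454 and 34453 CPM (36405 ± 2563 CPM). It alone took 3.93, 3.55 and 3.45% of all gene counts. Per length Atpalpha stood at 8047 ± 567 CPM per kilobase, and its range over the libraries overlapped that of Hsp67Bc, a small heat shock protein, at 7540 ± 853 CPM per kilobase. The ranges of lncRNA:noe and of these 2 genes did not overlap.

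Next in order per length came ATPsynC, the membrane ring subunit of the ATP synthase, with 4832, 5242 and 5380 CPM per kilobase. Act42A, a cytoplasmic actin, had 4432, 4574 and 4746 CPM per kilobase, below ATPsynC in every library. Hsp26 (4094 ± 567 CPM per kilobase), the signalling adaptor 14-3-3epsilon (4007 ± 166), lncRNA:Hsromega (3664 ± 120), the actin Act5C (3633 ± 64.2), alphaTub84B (3388 ± 45.8) and the histone H4 gene His4r (3348 ± 732) formed the next group on this scale. Hsp26 and His4r spread widest among them, so that neither can be ranked against its neighbours.

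The other 9 of the 20 highest genes per length lay between 2232 and 2823 CPM per kilobase. They were lncRNA:CR34335, the small heat shock gene Hsp23, the nicotinic receptor subunit nAChRbeta1, the superoxide dismutase Sod1, the cyclophilin Cyp1, the tetraspanin Tsp42Ej, the translation elongation factor eEF1alpha2, and CG3625 and CG2852. lncRNA:CR34335, with 524, 1064 and 995 CPM, was the least even of the 20. Exons of CG3625 overlap another gene over 28.0% of their length. FBgn0003887, an identifier that the annotation used here does not name, ranked after Atpalpha and lncRNA:noe by CPM with 11808, 11936 and 12070 CPM. The 229 unnamed identifiers together took 2.57, 2.62 and 2.62% of the counts. These identifiers, FBgn0003887 among them, have no transcript length here, so the ranking per length leaves them out.

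Most transcription factors of the lineage and of neuron identity were expressed, and a group of homeodomain and zinc-finger genes stood in the high class. Of 37 such factors, 1 was abundant, 13 high, 11 moderate, 11 low and 1 near zero, with a median of 35.8 CPM against 0.613 CPM over all genes. pros, a homeodomain regulator of neuronal differentiation, had 3068, 2758 and 2947 CPM and was the 1 abundant factor. zfh2, a zinc-finger homeodomain gene, had 855, 1172 and 954 CPM, and hth, a homeodomain cofactor, had 939, 925 and 987 CPM. kn, a COE-family factor, had 498, 475 and 415 CPM, and the Iroquois gene mirr had 404, 380 and 402 CPM. All of these varied by less than 1.5-fold between libraries. Per length the order changed: hth led with 225 CPM per kilobase, then pros with 195, kn with 134, lola with 124 and mirr with 102 CPM per kilobase.

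The BTB zinc-finger genes lola, mamo and br, of which br is an ecdysone target, averaged 363 ± 21.1, 341 ± 20.2 and 329 ± 33.7 CPM. pdm3, a POU factor, averaged 288 ± 32.6 CPM, and EcR, the ecdysone receptor, 152 ± 11.0 CPM. ab and chinmo, another pair of BTB zinc-finger genes, of which chinmo sets temporal identity, averaged 105 ± 16.0 and 102 ± 2.90 CPM. The moderate factors were salr, exd, fru, lov, tup, salm, usp, ct, toy, Sox102F and dac, with means from 13.7 (dac) to 86.0 CPM (salr). exd, the nuclear partner of hth, averaged 72.5 ± 9.53 CPM. fru, with 54.6, 19.5 and 47.7 CPM, was lowest in library 2.

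The low factors were bi, Lim1, pdm2, vvl, Lim3, ey, unpg, en, oc, nub and ems, with means from 1.29 (ems) to 9.96 CPM (bi). Several of them came mostly from 1 library. en, a homeodomain gene, had 0.222, 7.93 and 0 CPM, and pdm2, a POU gene, had 11.1, 1.13 and 2.45 CPM. inv, the paralog of en, averaged 0.227 CPM. The plot of these factors by library shows the tight points above 100 CPM and the scatter under 10 CPM.

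**Figure D2:**
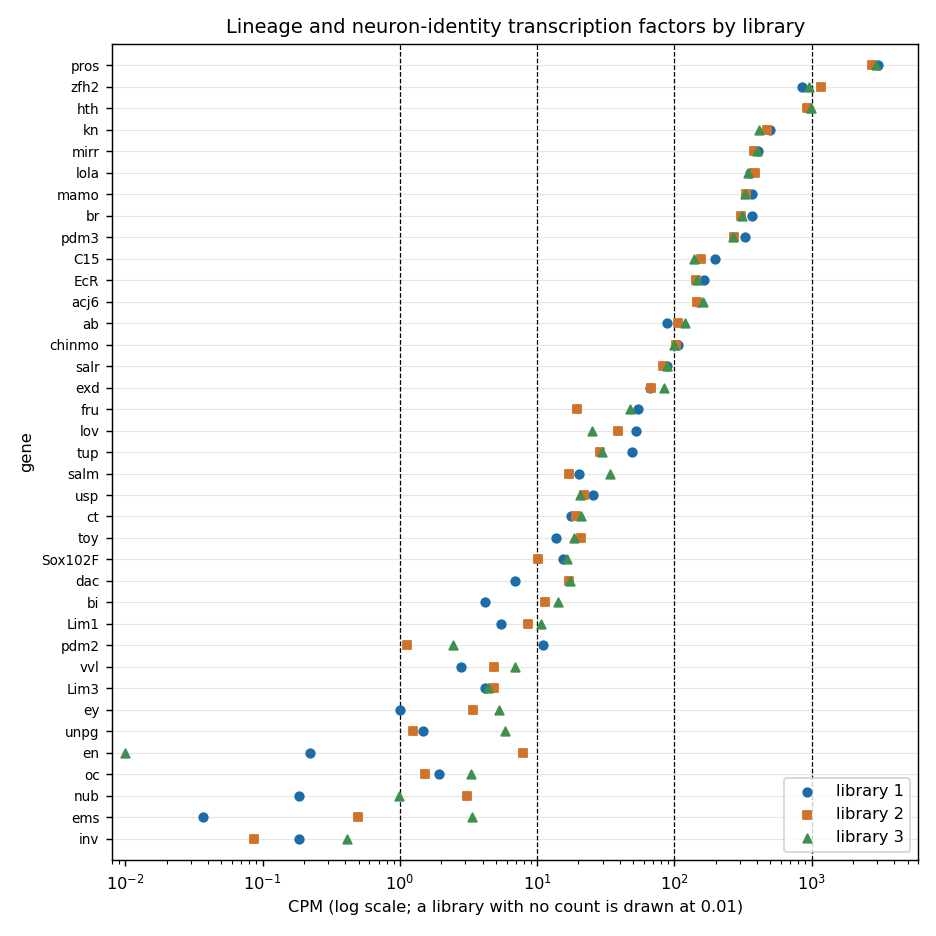
CPM (horizontal axis, log scale) of 37 transcription factors of the lineage and of neuron identity, 1 row per gene ordered by mean, with 1 point per wild-type library. The 3 points lie close together from pros (mean 2925 CPM) to chinmo (mean 102 CPM) and spread apart in the low rows, where en ranged from 0 to 7.93 CPM.

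The Hox genes, which pattern segments, were low or near zero throughout. Antp averaged 5.25 ± 1.98 CPM with exons that overlap another gene over 50.1% of their length, pb averaged 3.21 ± 3.24 CPM, and lab had 3.94 CPM in library 2 and no count in the other libraries. Scr, Abd-B, abd-A, Dfd and Ubx averaged 0.910, 0.802, 0.0519, 0.0369 and 0.0259 CPM. Thus 5 of 8 (62.5%) were near zero, against 52.7% of all genes absent or near zero. None reached 10 CPM, against 34.2% of all genes. The list median was 0.856 CPM against 0.613 CPM over all genes, so by the median the Hox list did not lie below the genes as a whole.

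Genes of the ecdysone response, the steroid pathway that times metamorphosis, were mostly expressed. Of 15 genes, 7 were high, 6 moderate and 2 low. Blimp-1, a zinc-finger repressor in the cascade, had the highest level per length at 94.3 CPM per kilobase, with 434, 375 and 429 CPM. br followed with 77 and the nuclear receptor Eip75B with 59.3 CPM per kilobase. ftz-f1, a nuclear receptor of the prepupal phase of the cascade, averaged 1.58 ± 0.749 CPM, and Hr51 averaged 2.54 ± 2.67 CPM with no count in library 3. Hr3 averaged 114 ± 5.15 CPM, but 82.7% of its exon length overlaps another gene.

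Genes of neural progenitors and of the cell cycle were mostly at or near 0. Of 20 such genes, 5 had no count, 9 were near zero, 3 low and 3 moderate. Thus 70.0% were absent or near zero, against 52.7% of all genes. wor and insc, which act in neuroblasts, and the proneural genes sc, ac and cato were those with no count. dpn and ase, further neuroblast factors, averaged 0.295 and 0.0246 CPM. The moderate members were nerfin-1, a zinc-finger gene of young neurons, with 56.6, 19.7 and 26.9 CPM, the proneural gene ato with 16.5, 40.8 and 28.5 CPM, and the cyclin CycA with 18, 13.2 and 15.3 CPM. PCNA, the replication clamp, averaged 9.49 ± 3.50 CPM.

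The cholinergic genes were all expressed, with the enzyme that breaks down acetylcholine above those that make and load it. Ace, the acetylcholinesterase, was among the steadiest genes with 1470, 1505 and 1481 CPM, or 364 CPM per kilobase. ChT, the choline transporter, had 216, 185 and 163 CPM, and 69.5% of its exon length overlaps another gene. ChAT, which synthesises acetylcholine, had 77.1, 58.7 and 68.6 CPM with a 15.1% exon overlap, and VAChT, which loads it into vesicles, had 101, 91.1 and 101 CPM. Per length ChAT (19.9) and VAChT (13.7 CPM per kilobase) were both below ChT (46.8 CPM per kilobase).

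Of 15 genes for the synthesis or transport of other transmitters, 2 were high, 7 moderate, 5 low and 1 had no count. Tbh, the octopamine-synthesis enzyme, had 220, 210 and 194 CPM and led per length with 55.2 CPM per kilobase. Vmat, the vesicular monoamine transporter, had 118, 193 and 80.1 CPM, highest in library 2, with 26.2% of its exons overlapping another gene. Ddc, which makes dopamine and serotonin, averaged 28.2 ± 3.30 CPM. VGlut, the vesicular glutamate transporter, had 36.7, 49.4 and 75.3 CPM. Gad1, the GABA-synthesis enzyme and a mark of a ventral projection neuron lineage, had 9.76, 2.58 and 20.1 CPM. Tdc2, which makes the tyramine that Tbh converts, averaged 3.62 ± 0.711 CPM, and Tdc1 had no count. Of the genes named here, the libraries of Gad1, Vmat and VGlut differed most.

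Receptors for acetylcholine, GABA and glutamate were present, each family led by 1 or a few subunits. nAChRbeta1, a nicotinic acetylcholine receptor subunit, had 2343, 2657 and 2846 CPM per kilobase. The next subunits, nAChRbeta2 and nAChRalpha2, averaged 192 and 96.7 CPM per kilobase, so that nAChRbeta1 stood apart from the rest of its family in every library. Of 10 nicotinic subunits 9 reached 10 CPM. nAChRbeta3 had no count, but all of its exon length lies inside another gene. Among the muscarinic receptors mAChR-A had 497, 401 and 372 CPM, mAChR-B averaged 14.0 ± 7.49 CPM and mAChR-C 0.407 CPM.

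Rdl, a GABA-gated chloride channel subunit, had 1627, 1817 and 1901 CPM, or 208 CPM per kilobase. Lcch3, another channel subunit, averaged 156 ± 11.4 CPM with a 31.3% exon overlap. The metabotropic receptors GABA-B-R1, GABA-B-R2 and GABA-B-R3 averaged 224 ± 25.2, 230 ± 36.9 and 105 ± 45.4 CPM. CG8916 averaged 5.64 CPM, and Grd was counted in library 2 alone, at 0.261 CPM.

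Of 15 glutamate receptor genes, 3 were high, 4 moderate, 1 low, 6 near zero and 1 without a count. The high ones were GluClalpha, a glutamate-gated chloride channel, with 362, 378 and 409 CPM, the kainate-type subunit KaiR1D with 331, 516 and 442 CPM, and the NMDA-type subunit Nmdar2 with 273, 368 and 474 CPM. Nmdar1, its partner subunit, averaged 44.2 ± 2.51 CPM. GluRIIA to GluRIIE, the subunits of the muscle synapse, were all near zero or without a count. Per length Nmdar2 was at 107 and Nmdar1 at 10.6 CPM per kilobase, with no overlap between libraries.

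Of 19 amine receptors, 14 reached 10 CPM. Octbeta1R, an octopamine receptor, had 214, 127 and 132 CPM, DopEcR, a dopamine and ecdysteroid receptor, had 245, 231 and 213 CPM, and TyrR, a tyramine receptor, had 242, 217 and 161 CPM. These 3 led the family per length with 67.4, 59.9 and 45.8 CPM per kilobase. The dopamine receptor Dop1R1 averaged 86.6 ± 6.36 CPM. Among the serotonin receptors 5-HT1A (34.9 ± 2.24 CPM) and 5-HT7 (30.1 ± 4.93 CPM) were moderate, and 5-HT1B, 5-HT2A and 5-HT2B were low with means from 5.55 to 6.58 CPM.

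Per length, the channel genes that were matched were led by potassium channels, while para, the voltage-gated sodium channel, matched no named identifier and has no value. Of 30 voltage-gated and related channel genes, 15 were high, 9 moderate, 5 low and 1 near zero, with a median of 95.2 CPM. Sh, the Shaker potassium channel, had 562, 480 and 519 CPM and led per length with 187 CPM per kilobase. Shaw, another voltage-gated potassium channel, averaged 75.1, the leak channel Task7 68.4 and Shab 58.2 CPM per kilobase. unc79, an auxiliary protein of the sodium leak channel, had 398, 415 and 405 CPM, while na, the channel itself, averaged 33 ± 13.5 CPM.

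Of 11 mechanosensory, TRP and otopetrin-like channel genes, OtopLa and OtopLc, which belong to the proton channel family, were high with 497, 527 and 460 CPM and with 566, 714 and 808 CPM. The third of that family, OtopLb, had no count. Tmem63, a stretch-activated channel, averaged 18.8 ± 10.3 CPM, and Piezo, a mechanically gated channel, had 37.8, 51.2 and 37.7 CPM. The hearing channels nompC, iav and nan were at 0.0492, 0.421 and 0 CPM.

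The beta subunits of the sodium pump were present in unequal amounts. nrv3, the neuronal beta subunit, had 3025, 2720 and 2685 CPM, nrv2, known from glia, had 472, 444 and 407 CPM, and nrv1 had 6.88, 6.25 and 6.70 CPM. Per length they stood at 908, 205 and 3.21 CPM per kilobase, and the libraries did not overlap. Among the 8 innexins, which form gap junctions, shakB had 829, 763 and 864 CPM. ogre, Inx2 and Inx3 averaged 30.6, 24.7 and 11.4 CPM. Inx5 and Inx7 were low and came mostly from library 2 (3.88 and 4.54 CPM there), Inx6 averaged 0.341 CPM, and the germline innexin zpg had no count.

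Cell-surface and guidance genes were expressed broadly. In the joined lists, 115 of 136 genes (84.6%) reached 10 CPM, against 34.2% of all genes and 42.4% of protein-coding genes. Of them, 57 genes were high, 58 moderate, 17 low, 3 near zero and 1 without a count, none was abundant, and the median was 71.2 CPM. Fas1, hbs, scb, 18w, Sema5c and trol were listed but matched no named identifier, so these counts leave them out. The 3 near-zero genes were Toll-9, Ptp52F and Nlg1. beat-IIIa was the 1 gene with no count, and its exons lie entirely inside another gene.

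All 4 Dscam genes, immunoglobulin receptors of self-recognition and tiling, were high. Dscam4 had 498, 433 and 403 CPM, Dscam3 434, 438 and 428 CPM, Dscam1 381, 385 and 347 CPM, and Dscam2 381, 341 and 360 CPM. Per length they lay between 47.6 and 68.0 CPM per kilobase, and Dscam1 and Dscam2 did not differ beyond their spread. The teneurins, which match synaptic partners by homophilic binding, were at 719, 683 and 712 CPM for Ten-m and at 311, 320 and 396 CPM for Ten-a.

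Of 18 leucine-rich repeat surface genes, 14 reached 10 CPM. Toll-6, Toll-7 and the kekkon kek6 led with 51.9, 50.7 and 46.3 CPM per kilobase, which did not differ beyond the spread of Toll-6 (364, 247 and 283 CPM). caps and trn, which act in dendrite targeting, averaged 64.6 ± 15.6 and 99.5 ± 27.7 CPM. Tollo averaged 4.99 CPM and Fili had 1.22, 27.2 and 11.0 CPM, the widest spread among the genes of this list that reached 10 CPM.

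Guidance ligands and receptors were both present, with 22 of 24 genes at 10 CPM or more. drl, a receptor for Wnt5, had 423, 308 and 319 CPM and led per length with 113 CPM per kilobase. Sema1a, a transmembrane semaphorin, had 629, 638 and 519 CPM, and the secreted semaphorin Sema2b had 260, 264 and 326 CPM. sli, the ligand of the Robo receptors, averaged 604 ± 80.5 CPM, and its receptors robo1 and robo3 averaged 307 ± 55.7 and 254 ± 20.9 CPM. PlexA, the receptor of Sema1a, averaged 280 ± 14.8 CPM. NetA, a netrin, averaged 1.48 ± 1.12 CPM, and its relative NetB averaged 60.4 ± 16.0 CPM.

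Of the receptor tyrosine phosphatases, Ptp99A and Ptp69D were high with means of 207 and 116 CPM, Lar and Ptp10D moderate with 72.7 and 42.6 CPM, Ptp4E low with 7.89 CPM and Ptp52F near zero with 0.577 CPM. Lar overlaps another gene over 83.6% of its exon length. Among the heparan sulfate proteoglycans Sdc had 388, 447 and 401 CPM, the glypican dally averaged 83.0 ± 6.75 CPM and its relative dlp 8.33 ± 2.98 CPM.

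Adhesion genes were led per length by klg (113), the neuroligin Nlg2 (76.8) and tutl (73.1 CPM per kilobase), which had means of 460, 385 and 381 CPM. CadN, the neural cadherin, had 580, 504 and 476 CPM, while its neighbour in the family CadN2 averaged 13.5 ± 3.89 CPM. Neuroligins spread over several classes, since Nlg3 and Nlg4 averaged 87 and 29.8 CPM and Nlg1, of the muscle synapse, 0.0426 CPM.

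The immunoglobulin families of Beat, Side, Dpr and DIP proteins, which bind each other across cells, were nearly all present. Of 14 beat genes 13 reached 10 CPM, led by beat-Vc with 369, 351 and 346 CPM and 158 CPM per kilobase. beat-IV and beat-VI followed with 55.4 and 53.8 CPM per kilobase and overlapping libraries. All 8 side genes reached 10 CPM. side-VIII (374 ± 55 CPM), side-II (202 ± 10.7), side-VI (160 ± 33.4) and side (109 ± 17.6) were high, and side-III (53.4), side-V (49.2), side-IV (35.8) and side-VII (30.7 CPM) were moderate.

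Of 21 dpr genes, 8 were high, 10 moderate and 3 low (dpr16, dpr10 and dpr15). dpr6, dpr7 and dpr21 led with 193, 178 and 131 CPM per kilobase, and dpr6 had 630, 530 and 557 CPM. Of 11 DIP genes, 2 were high, 5 moderate and 4 low. DIP-beta had 284, 277 and 298 CPM, DIP-theta 147, 206 and 126 CPM, and DIP-gamma averaged 69.7 ± 12.7 CPM. Dpr proteins bind DIP proteins, and members of both families were thus counted in the same libraries.

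Most synaptic genes were expressed at this stage. Of 31 synaptic vesicle and active zone genes, 4 were abundant, 10 high, 14 moderate and 1 near zero, and 2 had no count. Rab3, a GTPase of synaptic vesicles, had 4058, 4207 and 3832 CPM, and its 1371 CPM per kilobase led the list. nSyb, the vesicle SNARE, had 1513, 1555 and 1386 CPM (662 CPM per kilobase), and cpx, the fusion clamp complexin, had 1473, 1420 and 1501 CPM (404 CPM per kilobase). The membrane SNARE Syx1A averaged 399 ± 33.5 CPM and its partner Snap25 38.8 ± 5.37 CPM, or 151 and 17.4 CPM per kilobase. The calcium sensor Syt1 averaged 261 ± 41.0 CPM. stnA and stnB had no count, and in the gene models used here their exons lie entirely inside another gene. All 15 pan-neuronal genes matched reached 10 CPM, with Snap25 the lowest.

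Cytoskeleton and transport genes ranged widely within each family. Among the alpha-tubulins alphaTub84B had 5851, 5946 and 6011 CPM (3388 CPM per kilobase), alphaTub84D averaged 321 CPM per kilobase, and alphaTub67C, of the egg, had a mean of 0.595 CPM. The beta-tubulin genes betaTub56D and betaTub60D matched no named identifier and have no value here. Whether any of the 229 unnamed identifiers, FBgn0003887 among them, belongs to these genes was not determined. Jupiter, a microtubule-binding protein, averaged 925 ± 26.7 CPM. The cytoplasmic actins Act42A and Act5C were abundant, and the muscle actins Act57B, Act79B and Act88F were at 0.865, 0.145 and 0 CPM. tsr, which encodes cofilin, had 1374, 1623 and 1724 CPM. These actin genes are close in sequence, so that reads between them may have been set aside as not unique.

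The kinesin unc-104, which carries synaptic vesicle precursors, had 4951, 3890 and 3340 CPM and 548 CPM per kilobase. The dynein light chains ctp and robl averaged 597 and 281 CPM per kilobase, while Khc, the conventional kinesin heavy chain, averaged 26.5 CPM per kilobase.

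Protein synthesis, respiration and protein turnover genes were mostly in the high class, with exceptions in each family. Of 88 cytoplasmic ribosomal protein genes, 66 were high, 3 abundant, 9 moderate and 10 under 10 CPM. The 3 abundant ones were RpL13A (1053, 1174 and 1351 CPM), sta (1454, 1410 and 1533 CPM) and RpS7 (957, 1049 and 1090 CPM). The 10 under 10 CPM were RpS15Ab at 7.94 CPM, the near-zero RpL10Aa, RpL22-like, RpL37-2, RpL7-like, RpS10a, RpS28-like and RpS5b, and RpS19b and RpS28a with no count. Together the ribosomal protein genes took 22768, 25652 and 27595 CPM, lowest in library 1. The translation factors eEF1alpha2, eIF4A and eIF4E1 led their list with 2232, 593 and 550 CPM per kilobase.

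Of 87 genes of oxidative phosphorylation, 7 were abundant, 47 high, 9 moderate, 2 low, 10 near zero and 12 without a count. ATPsynC, COX7A and ATPsyngamma, of the ATP synthase and cytochrome oxidase, led with 5151, 2119 and 1883 CPM per kilobase. The summed level was 37260, 41033 and 43489 CPM, lowest in library 1, as for the ribosomal proteins. Of the 13 protein-coding genes of the mitochondrial genome 5 were high, among them mt:CoI (730, 716 and 650 CPM), mt:CoII (546, 663 and 746 CPM), mt:CoIII (632, 619 and 702 CPM) and mt:ATPase6 (189, 227 and 241 CPM). The other 8 were low or near zero, and 19 of 22 mitochondrial tRNAs had no count.

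Glycolysis genes Gapdh2, Ald1 and Gapdh1 averaged 1434, 1198 and 816 CPM, and Ldh, lactate dehydrogenase, 0.564 CPM. Of 48 proteasome genes 28 were high, led per length by Prosbeta3, Prosbeta5 and Prosalpha3 (753, 543 and 451 CPM per kilobase). Prosalpha1, a core subunit, had no count, while 1.75% of its exon length overlaps another gene. Reads that aligned to several places were set aside before counting, and their part in this missing count was not tested. The ubiquitin genes RpL40, RpS27A, Ubi-p5E and Ubi-p63E averaged 551, 182, 181 and 59.5 CPM, and Ubi-p63E, a repeat of ubiquitin units, is uncertain.

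Several small and constitutive heat shock genes were abundant. Hsp26 had 3491, 3989 and 4605 CPM, Hsp23 2116, 2283 and 2551 CPM, and the Hsp90 gene Hsp83 6530, 5293 and 5135 CPM. The strongly heat-inducible Hsp70 copies Hsp70Aa, Hsp70Ab, Hsp70Ba, Hsp70Bb, Hsp70Bbb and Hsp70Bc had means of up to 28.9 CPM, and as near-identical copies their counts are uncertain. Hsp22 had no count, with its exons entirely inside another gene. Of 111 replication-dependent histone genes 108 had no count. These genes lie in near-identical repeats, so their counts are uncertain too. The variant histone genes His4r, His2Av, His3.3A and His3.3B averaged 2044, 409, 120 and 63.6 CPM.

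RNA-binding proteins were expressed almost throughout, with 19 of 20 at 10 CPM or more. shep, a neuronal RNA-binding protein that acts in remodelling, had 1143, 1139 and 1153 CPM. Rbp9 and Syp averaged 616 ± 37.7 and 546 ± 37.1 CPM. Among the cAMP pathway genes the phosphodiesterase dnc averaged 384 ± 21.4 CPM, the kinase subunits Pka-C1 and Pka-R1 324 ± 45.9 and 182 ± 27 CPM, and the adenylyl cyclase rut 15.7 ± 4.49 CPM.

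Of the 8 clock genes, cyc (59.2 CPM), tim (35.6 CPM) and Pdp1 (29.8 CPM) were moderate, per (9.38 CPM), cry (4.73 CPM) and cwo (3.75 CPM) low, and vri and Clk near zero at 0.869 and 0.224 CPM. tim had 45.8, 43.6 and 17.2 CPM, lowest in library 3.

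Of the RNAs of dosage compensation, the process that raises X-linked expression in males, lncRNA:roX1 was abundant and lncRNA:roX2 high. lncRNA:roX1 had 1677, 1575 and 1435 CPM and lncRNA:roX2 455, 488 and 589 CPM, or 413 and 815 CPM per kilobase. The splicing regulator tra2 had 113, 64.9 and 71.0 CPM, and Sxl 94.1, 72.9 and 61.3 CPM. The Y-linked genes listed were at 0 or near zero in all libraries, and their summed level was 0.924, 0.261 and 0 CPM. The labels give no sex, and whether the libraries pool animals of both sexes was not tested. Of the other long noncoding RNAs, lncRNA:mimi averaged 564 ± 14.9 CPM and lncRNA:CR42862 401 ± 12.5 CPM.

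Chemosensory receptors, among them the genes that define the receptor neurons upstream of these cells, were nearly silent. Of 187 odorant, gustatory and ionotropic receptor genes joined, 65 had no count, 99 were near zero, 20 low and 3 at 10 CPM or more. The 3 were Gr63a, a carbon dioxide receptor subunit, with 100, 107 and 94.8 CPM, the sugar receptor gene Gr61a with 45.3, 19.8 and 18.8 CPM, and Ir68a, a moist-air receptor, with 11.5, 15.8 and 26.6 CPM. Orco, the coreceptor of nearly all odorant receptors, had 0, 0.782 and 2.41 CPM.

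Of the low receptors, Or43b, Or45a and Or43a averaged 8.42, 7.16 and 4.26 CPM, Gr43a and Gr32a 9.08 and 5.36 CPM, and Ir76a and Ir56c 9.93 and 7.73 CPM. Or85f averaged 1.94 CPM. Ir21a came from library 3 alone in effect, with 0.0739, 0 and 25.8 CPM and a 79.4% exon overlap. Of 29 pickpocket channel genes ppk29 and ppk8 passed 1 CPM, with means of 4.41 and 3.97 CPM. Among 52 odorant-binding protein genes Obp44a stood out with 569, 638 and 801 CPM (19.1% exon overlap), followed by Obp99a with 22.9, 37.4 and 52.6 CPM, while Obp99b and Obp99c averaged 6.43 and 1.44 CPM.

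The panel of gene lists draws 32 lists, and there the pan-neuronal, cell-surface, ribosomal protein, oxidative phosphorylation and proteasome lists have medians above 10 CPM, and the odorant, gustatory and ionotropic receptor, muscle, photoreceptor and cuticle lists medians under 1 CPM. Of 66 lists, 38 had a median of 10 CPM or more.

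**Figure D3:**
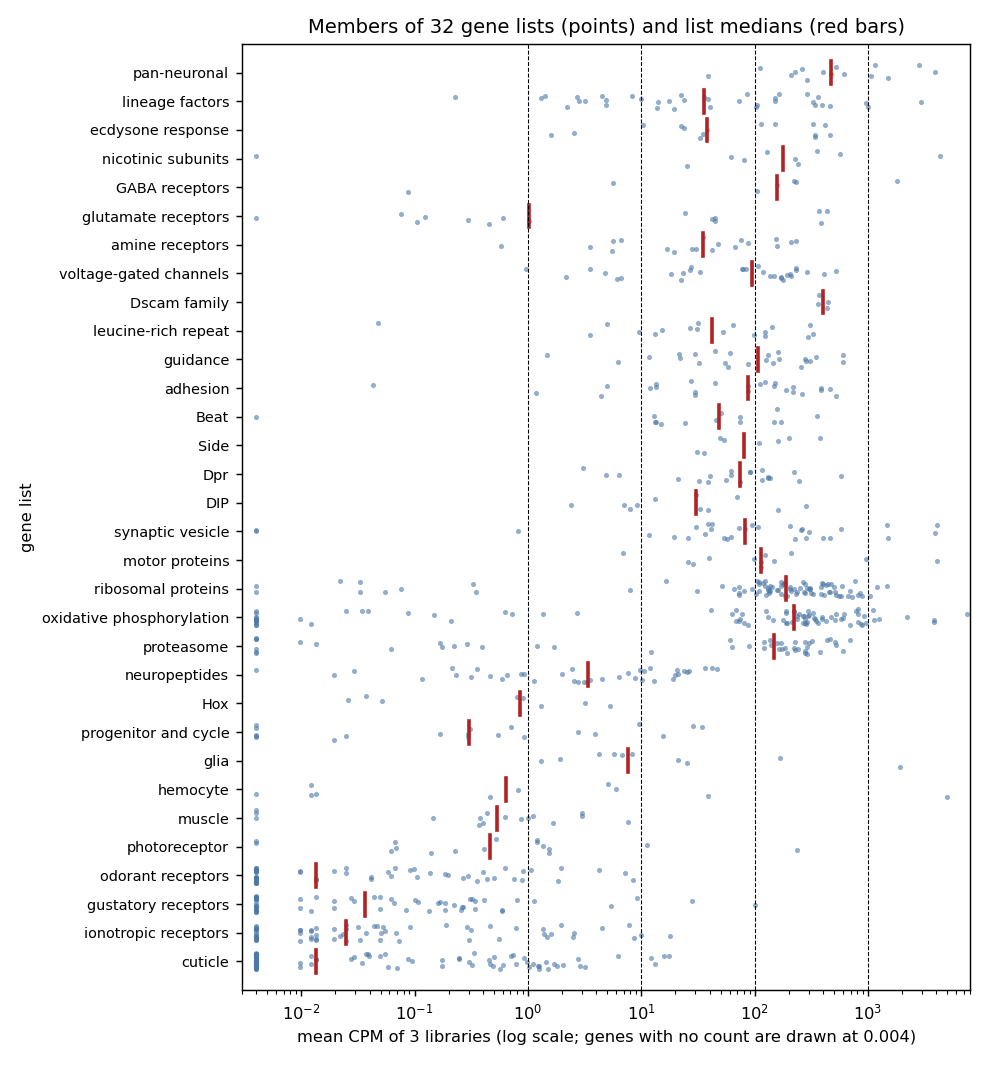
Mean CPM of the 3 wild-type libraries (horizontal axis, log scale) of the members of gene lists (1 point per gene), for 32 of the 66 lists, with the median of each list as a red bar; genes with no count are drawn at the left edge. Among the lists drawn, medians run from 468 CPM for pan-neuronal genes to 0.0136 CPM for odorant receptors and cuticle genes.

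Markers of other cell types were mostly under 10 CPM, with 1 or more genes as exceptions in several lists. Most genes were under 10 CPM too, since 34.2% of all genes reached it. The epithelial and tracheal list had a median of 3.74 CPM, above the 0.613 CPM over all genes. Medians of the fat body (1.04), hemocyte (0.638), muscle (0.531) and photoreceptor (0.464 CPM) lists lay within 1 SD over the libraries of that value. By the median these lists thus did not lie clearly below the genes as a whole. repo, the glial homeodomain factor, had 1.74, 3.10 and 0.858 CPM. Of 10 glial genes 6 were low, 2 moderate, 1 high and 1 abundant, and the list summed to 2182, 2275 and 2065 CPM, most of it from drpr. Thus 4 of them (40.0%) reached 10 CPM, against 34.2% of all genes. The list median was 7.56 CPM against 0.613 CPM over all genes, so the glial list did not lie below the genes as a whole. drpr, the engulfment receptor, had 1969, 2003 and 1825 CPM, and the glutamine synthetase Gs2 had 144, 184 and 172 CPM. alrm and wrapper averaged 25.4 ± 6.53 and 21.1 ± 0.772 CPM, and moody and Eaat1 8.31 and 6.80 CPM. Whether glial RNA takes part in these levels was not tested.

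The hemocyte list held 1 abundant gene and defining genes at or near 0. Pxn, peroxidasin, had 5247, 4779 and 4938 CPM and made up most of the list's summed 5299, 4831 and 4986 CPM. Hml and NimC1 were each counted once, in library 1, and eater had no count. crq averaged 38.5 ± 1.37 CPM, and the collagen IV genes vkg and Col4a1 5.96 and 5.09 CPM.

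The fat body list had no gene at 10 CPM, and its larval serum protein genes were uneven. Lsp1alpha had 0, 0 and 9.16 CPM, Lsp2 3.62, 0.434 and 10.7 CPM (84.6% exon overlap), and apolpp 10.1, 6.17 and 11.5 CPM. Lsp1beta, Lsp1gamma, Fbp1 and Fbp2 averaged 0.642, 0.42, 0.695 and 1.04 CPM. The 7 genes summed to 14.6, 9.20 and 36.3 CPM, highest in library 3.

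All 16 muscle genes stayed under 10 CPM and summed to 19.5, 18 and 24.1 CPM. Act87E averaged 7.59 CPM, Mlc2 2.98 CPM, Tm2 1.66 CPM and Mlc1 1.11 CPM, and the muscle myosin Mhc 0.375 CPM. In the photoreceptor list norpA, a phospholipase C, was high with 239, 248 and 216 CPM, while the main rhodopsin ninaE averaged 0.0686 CPM. Rh7 averaged 11.3 ± 2.43 CPM, Rh5 1.53 CPM and gl 1.21 CPM. Mhc and ninaE, defining genes of muscle and of photoreceptors, were thus under 1 CPM in each library.

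Epithelial and tracheal genes were low except Gasp (14.0 ± 2.97 CPM) and dpy (57.5, 44.7 and 94.9 CPM), and dpy, a gene with very long transcripts, stood at 1.13 CPM per kilobase. serp, crb, shg, trh, verm and grh averaged 8.67, 4.41, 3.07, 1.23, 1.17 and 1.04 CPM. Lists of other tissues were near 0 as a whole. Of 62 sperm genes 59 were absent or near zero, of 39 gut genes 37, of 20 antimicrobial peptide genes 19, and of 18 glue protein genes 17. The exceptions were Mst77F, Mst36Fa and Mst36Fb at 5.25, 2.45 and 1.31 CPM, Mal-A5 and Amy-p at 7.58 and 2.82 CPM, AttA at 1.12 CPM and Sgs3 at 1.46 CPM. Of 17 eggshell and yolk genes Cp38, Yp1 and Yp3 passed 1 CPM at 6.29, 2.64 and 2.09 CPM. Of 84 cytochrome P450 genes 4 reached 10 CPM, Cyp4g15 (26.9 CPM), Cyp6a2 (21.3 CPM), Cyp9c1 (18.5 CPM, 98.2% exon overlap) and Cyp6u1 (17.9 CPM).

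Neuropeptide genes were uneven between libraries, and none had a mean above 46.5 CPM. Of 40 genes, 14 were moderate, 13 low, 12 near zero and 1 without a count. The share at 10 CPM or more was thus close to the 34.2% of all genes. Absent or near-zero genes made up 32.5% of the list, against 52.7% of all genes. SIFa had 57.8, 39.5 and 27.6 CPM (21.1% exon overlap), and Ilp3 30.8, 39.1 and 40.3 CPM. Crz, corazonin, had 0.407, 75.9 and 2.04 CPM and Hug 7.91, 30.7 and 0.123 CPM. Ptth, the peptide hormone that triggers ecdysone release, had 0.592, 106 and 0.163 CPM. ITP had 8.87, 43.3 and 7.56 CPM, and Akh 4.62, 19.5 and 6.17 CPM. These 5 genes, grouped here as highest in library 2, were Crz, Hug, Ptth, ITP and Akh, and without it each would average under 10 CPM. A lower mean without library 2 follows from that grouping, and SIFa and Ilp3 were highest in other libraries.

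The 4 cuticle genes with the highest means were also highest in library 2. Lcp65Ad had 2.55, 29.3 and 7.52 CPM, Cpr72Eb 8.91, 30.7 and 13 CPM, Cpr51A 3.96, 25.4 and 6.87 CPM, and Cpr100A 7.25, 33 and 6.87 CPM. These 4 summed to 22.7, 118 and 34.2 CPM in libraries 1 to 3, and the other 95 cuticle genes to 36.7, 41.7 and 38.8 CPM. The 4 were picked by their means, which library 2 raises, so this contrast follows in part from the choice. The part of other cells of library 2 in these genes was not tested. Pdf, another neuropeptide, was instead highest in library 1 with 18, 0.695 and 0.245 CPM.

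The spread over the 3 libraries fell with the level of the gene. The median coefficient of variation (CV, SD over mean) was 140% in the near-zero class, 49.6% in the low class, 18.6% in the moderate class, 11.0% in the high class and 7.75% in the abundant class. The share of genes whose highest and lowest library differed by at most 1.5-fold was 1.68, 14.7, 57.7, 87 and 99.1% in the same order of classes. The biological coefficient of variation fitted by edgeR to an intercept alone was 44.2% over 8256 genes at 1 CPM or more, and its trend gave 95.0, 46.3, 17.2 and 12.9% at 1, 10, 100 and 1000 CPM. Most genes at 100 CPM or more were thus alike in the 3 libraries to within 1.5-fold, and most genes under 10 CPM were not.

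**Figure D4:**
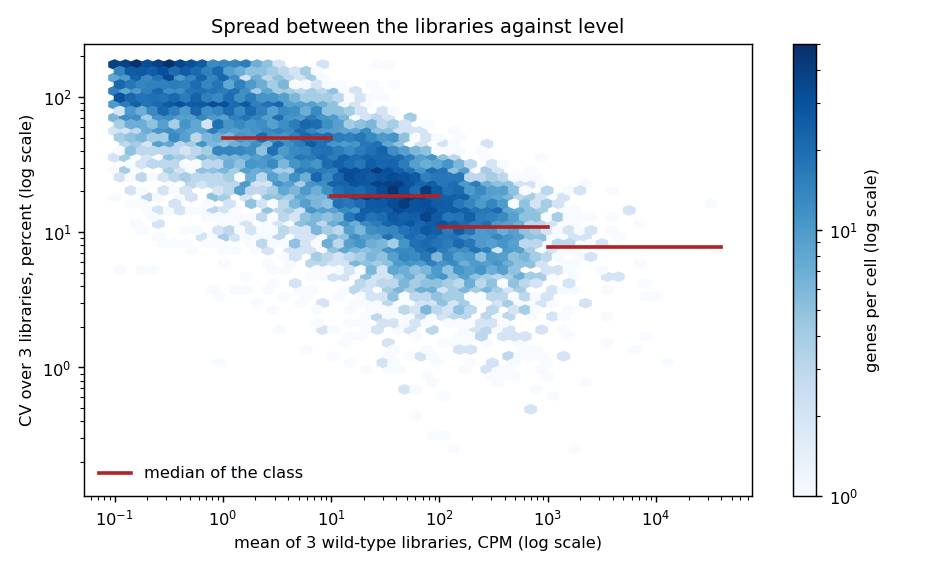
CV over the 3 wild-type libraries in percent (vertical axis, log scale) against mean CPM (horizontal axis, log scale) for genes at 0.1 CPM or more, shaded by the number of genes, with class medians as red bars. The medians step down through 49.6, 18.6, 11.0 and 7.75% for the low, moderate, high and abundant classes.

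Many rare transcripts came from 1 library. Of the 4577 near-zero genes, 2530 had at least 80% of their summed CPM in 1 library, as did 176 of the low genes and 4 of the moderate genes. The 4 were Ptth and Crz in library 2 and MED23 (52.4, 8.31 and 2.94 CPM) and CG12239 (89.1, 7.90 and 14.2 CPM) in library 1. No gene at 100 CPM or more did so. Counts were found in all 3 libraries for 9373 genes, in 2 for 1525, in 1 for 1935 and in none for 4638. Across the 8256 genes, log2 CPM values (with a pseudocount of 0.1 CPM) correlated at 0.931, 0.922 and 0.915 (Pearson's r) for libraries 1 and 2, 1 and 3, and 2 and 3, as a description across genes, which are not independent. The chi-square per degree of freedom of the counts was 76.0, 96.0 and 63.2 for these pairs, far more than counting noise, so no pair was alike enough to be 1 library entered under both names.

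Among 1985 genes at 100 CPM or more, 1741 stayed within 1.5-fold and 18 differed by more than 2-fold. The widest ratio belonged to kel, which encodes the ring canal protein Kelch, with 207, 113 and 67.7 CPM. The next 9 were mfas (107, 271 and 134 CPM), GABA-B-R3, Patj (350, 342 and 144 CPM), Vmat, Pcl, oys, CG12099, CG3520 and CG1513, with ratios from 2.15 to 2.54. No single library was the high one in all of these genes. The steadiest gene was 14-3-3zeta, with 1689, 1682 and 1682 CPM and a CV of 0.244%. P58IPK, CG12237, CG7518, Mdh2, CG14043, shep, lark, fax and RpLP0 followed with CVs of at most 0.845%.

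Part of the spread followed transcript length. In 77 genes with transcripts of up to 500 bases, at 10 CPM or more, the median log2 ratio of a library to the mean of the 3 was -0.37 in library 1, 0.03 in library 2 and 0.27 in library 3. In 2025 genes with transcripts of over 2000 and up to 4000 bases it was 0.11, -0.02 and -0.13. Library 1 thus had fewer counts from short transcripts and library 3 more, and library 2 lay between them. The ratios were smaller again at over 4000 and up to 8000 bases (0.04, -0.01 and -0.06). Over 8000 bases they were 0.02, 0.01 and -0.05, so the trend was not steady with length. Across 5887 genes the log ratio of 2 libraries correlated with length at a Spearman's rho of 0.294, 0.397 and 0.204 for libraries 1 and 2, 1 and 3, and 2 and 3, given as a description. Some lists of short genes followed this order of libraries: the ribosomal proteins have a median transcript length of 708.5 bases and the oxidative phosphorylation genes 694.5 bases, and both sums were lowest in library 1 and highest in library 3. Other short lists had another order: the neuropeptide genes, with a median length of 862 bases, summed to 337, 482 and 345 CPM, and the cuticle genes, with 765 bases, to 59.4, 160 and 73.1 CPM.

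**Figure D5:**
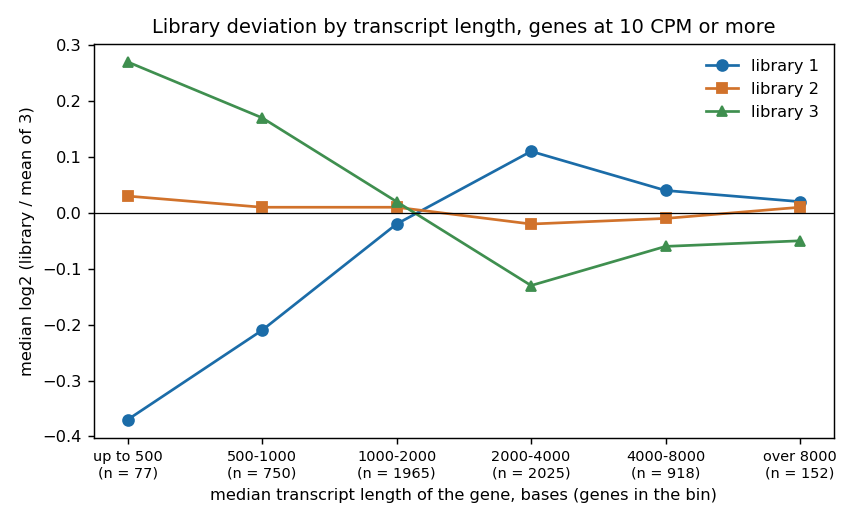
Median log2 ratio of each wild-type library to the mean of the 3 (vertical axis) in bins of median transcript length in bases (horizontal axis), for genes at 10 CPM or more. In the shortest bin library 1 lies at -0.37 and library 3 at 0.27, and the lines cross above the bin of 1000 to 2000 bases.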

How the data were processed

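The authors deposited 1 file of raw gene counts for each library, as whole numbers. Per the submitters' processing notes, HTSeq 0.11.2, STAR 2.5.4 and bcl2fastq 2.19.0.316 were used. For the build, the annotation and the strand setting the entry is: not given in the sources used here. Coordinates are therefore left out. Each file holds 17575 entries: 17471 genes, 96 ERCC spike-ins, 3 transgenes and 5 summary entries. The last 3 kinds stayed out of library sizes. Entries outside annotated genes came to 9.62, 9.59 and 9.58% of the gene counts in libraries 1 to 3, and ambiguous ones to 2.49, 2.58 and 2.63%. PCR copies are not independent molecules, so floors cover counting error only. In a single library 3 counts correspond to 0.111, 0.0868 and 0.123 CPM.

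CPM was computed per library on the total of the FlyBase genes. Identifiers were looked up in the Ensembl 115 models of BDGP6.54 for symbols, for the median length of each gene's transcripts and for overlaps between exons. Dispersion was fitted with edgeR 4.0.16 (R 4.3.3) on genes at a mean of 1 CPM or more, and the script was tested on simulated data. No test between groups was run, since 1 group of 3 libraries was described. Alternatives were TMM factors, size factors of DESeq2 1.42.0, a denominator without the mitochondrial genome, the lowest library in place of the mean, CPM per kilobase, the longest transcript, no filter, and leaving out each library.

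The libraries follow from the genotype label; the choice to describe them, and the 66 gene lists, were made with earlier results of these data known. Genes named are acj6, C15, brp and elav, the 20 highest per length and 10 highest by CPM, the 3 highest per length of each list (all members of lists of up to 8; the members at 1 CPM or more, up to 4, where at least 50% were absent or near zero), the 10 most and 10 least variable at 100 CPM or more, and all listed lineage factors. Further members, such as those at 0, were named after their values were seen. Of the listed symbols 16, among them Oaz and para, matched no named identifier and have no value. Some of them may be among the 229 unnamed identifiers. The members of 1 list are not reported here.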

Additional observations from a re-analysis of the deposited data

Results flagged for a closer look

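Reads were also counted for sequences that are not fly genes and that no comparison here uses. The mCD8-GFP transgene, a membrane-bound fluorescent marker, had 114419 counts in library 1, 125742 in library 2 and 76483 in library 3, which corresponds to 4230, 3640 and 3126 per 1000000 gene counts. The GAL4 entry had no count in any library, and the flp entry had 0, 2 and 1 counts. The 96 ERCC spike-in sequences summed to 27, 29 and 29 counts in libraries 1 to 3, against gene totals of 27049408, 34547549 and 24467328. No explanation of these counts was tested.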

How the results depend on the processing

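Scaling by TMM or DESeq2 size factors, or without the mitochondrial genome, left every count of genes per class within 1.5 times its value. On the scale of CPM per kilobase 1031 genes were high and 47 abundant, in place of 1876 and 109. With no filter on low counts the median CV was 36.4% and the biological coefficient of variation 64.1%, in place of 19.6 and 44.2%. Leaving out 1 library gave 5214 to 5357 absent, 3911 to 4063 near-zero, 2215 to 2307 low, 3980 to 4012 moderate, 1851 to 1887 high and 107 to 112 abundant genes. It also gave a median CV of 14.4 to 18.7% and a biological coefficient of variation of 41.8 to 46.1%. A CV over 2 libraries is not like for like with the 19.6% over 3 libraries. The top 10 and top 100 genes then held shares of 13.1 to 13.5% and 31.3 to 31.7%. In each case 38 lists had a median of 10 CPM or more. List medians moved by more than 1 SD over the libraries in 28 of 198 cases on leaving out a library and in 9 of 198 under other scalings, where the lists were odorant receptors, cuticle and gut proteases, with medians near 0 and an SD of 0. Moves within a wide SD can be large: Crz averaged 1.23 CPM without library 2 in place of 26.1 CPM, Orco 0.391 CPM without library 3 in place of 1.06 CPM, Hml 0 without library 1 in place of 0.0123 CPM, and the hemocyte median was 0.181 CPM without library 1 in place of 0.638 CPM. Without library 2 the Hox median was 0.416 CPM in place of 0.856 CPM, and without library 3 the fat body median was 0.63 in place of 1.04 CPM and the photoreceptor median 0.225 in place of 0.464 CPM. With the longest transcript as length 17 of the 20 highest genes per length were kept. No paired analysis was possible because 1 group was described and no test was run. The search of promoters for motifs was not run. Depth limits genes under 1 CPM, and the labels limit what the spread over libraries stands for.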
